A study of Drosophila melanogaster with 6 samples.

Results

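G418-challenged larvae were compared with unchallenged larvae in the proventriculus, the valve-like organ where the foregut of the fly larva opens into the midgut. The members are 4 arrays of the 6 in the series, chosen by their titles: G418 challenged replicates 1 and 2, and unchallenged replicates 1 and 2. All were made from total RNA of the dissected organ of Drosophila melanogaster at instar 3, on the Affymetrix Drosophila 2.0 expression array. Every group, controls included, carried the strain hairy-gal4 UAS-neoGFP, in which a driver at the hairy gene directs a neomycin resistance and GFP fusion to the cells where hairy is active. The other 2 arrays are F3 larvae, both unchallenged, one with and one without past exposure on F1, and they serve here only as extra levels beside the comparison. The labels give no dose, no duration and no statement that the replicates of a group were separate dissections, so p-values measure no more than how these arrays scatter, and that scatter may be technical.

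G418 is an aminoglycoside that binds the ribosome of eukaryotic cells and disturbs decoding, and the neomycin resistance enzyme inactivates it. Insects handle foreign compounds in steps. Cytochrome P450s and other oxidases or reductases modify them, transferases then attach glutathione or a sugar, and membrane transporters export the product. The ecdysteroid kinase-like genes encode a family of predicted small-molecule kinases, some of which act on moulting hormones in insects, and which has been proposed to include detoxification enzymes that add phosphate.

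The values are log2 expression values, so a difference of 1 is 2-fold. After 183 control probe sets were left out, 18769 probe sets remained, standing for 11982 named genes. Array medians lay between 4.92 and 5.03 on the G418 arrays and between 4.95 and 4.96 on the unchallenged arrays. All 7 measured proventriculus and foregut regulators on the marker list, among them fkh, hh and drm, lay above the array median on every array.

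The distance between arrays did not follow the labels closely. Over all probe sets G418 replicate 2 was more like unchallenged replicate 1 (Pearson r = 0.9901) than like G418 replicate 1 (0.9827), and whether a sample was mislabelled was not tested. Every group change below assumes the labels. Between these 2 arrays the GstD genes, described below, had a median difference of 1.51, G418 replicate 2 being higher. Of the probe sets, 341 differed at least 2-fold between G418 replicate 2 and unchallenged replicate 1, the fewest of any pair of these 4 arrays. Between G418 replicate 1 and unchallenged replicate 2 the number was 2331, the most of any pair. Inside the groups, 645 differed between the G418 arrays and 1293 between the unchallenged arrays. The median absolute log2 change between group means was 0.173, beside a median difference of 0.205 within the G418 pair and 0.208 within the unchallenged pair. A difference between means scatters less than a difference between single arrays, so these medians are not like for like. Between single arrays of different groups the median absolute log2 difference ran from 0.131 to 0.328. Each change below is set beside the distance between replicates.

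**Figure D1:**
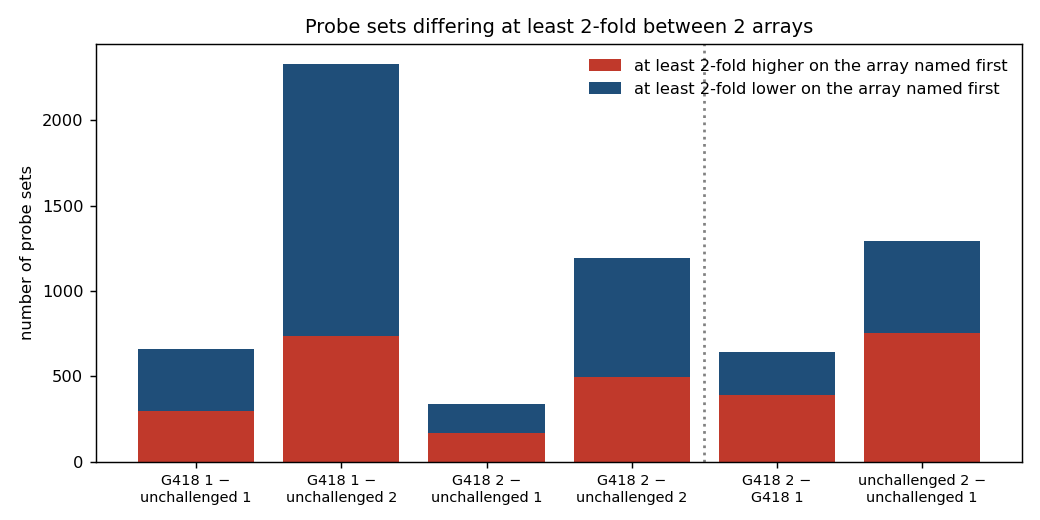
Number of probe sets, of 18769, that differed at least 2-fold between 2 arrays, split by direction. The 4 pairs left of the dotted line set a G418 array against an unchallenged array, from 341 to 2331 probe sets, and the 2 pairs right of it are replicates, with 645 and 1293.

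Limma, which fits each probe set with a variance prior shared by all, called 0 of 18769 at an adjusted p under 0.05, which is 0.0%. It gave 664 probe sets (3.54%) an unadjusted p under 0.05, 355 higher with G418 (1.89%) and 309 lower (1.65%). An exact permutation test of 2 arrays against 2 cannot give a two-sided p below 0.333 for any single gene. Without unchallenged replicate 1 limma called 251 probe sets, with the lone remaining unchallenged array assumed to vary like the G418 pair. Of those 251, 156 did not overlap between the groups when all 4 arrays were read, and 16 met the stricter rule given next. Without unchallenged replicate 2 it called 4, of which 0 met either.

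A gene is called separated here if the gap between the nearest arrays of the groups was wider than the larger of the within-pair differences. It is a description, not a test. Among named genes 66 were separated and at least 2-fold higher with G418 (0.551% of 11982), and 21 were separated and at least 2-fold lower (0.175%). The higher ones also had larger changes, with a median of 1.93 and a range of 1.01 to 5.28 on the log2 scale, against a median of 1.17 and a range of 1.01 to 2.44 among the lower ones. Changes of this size were far more common without separation: a further 197 genes were higher by 2-fold or more and a further 338 lower. Together with the separated ones, 2.19% of genes were higher and 3.0% lower by that much. All 87 separated genes had an unadjusted p under 0.05 in limma, with adjusted p-values from 0.0904 to 0.788.

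**Figure D2:**
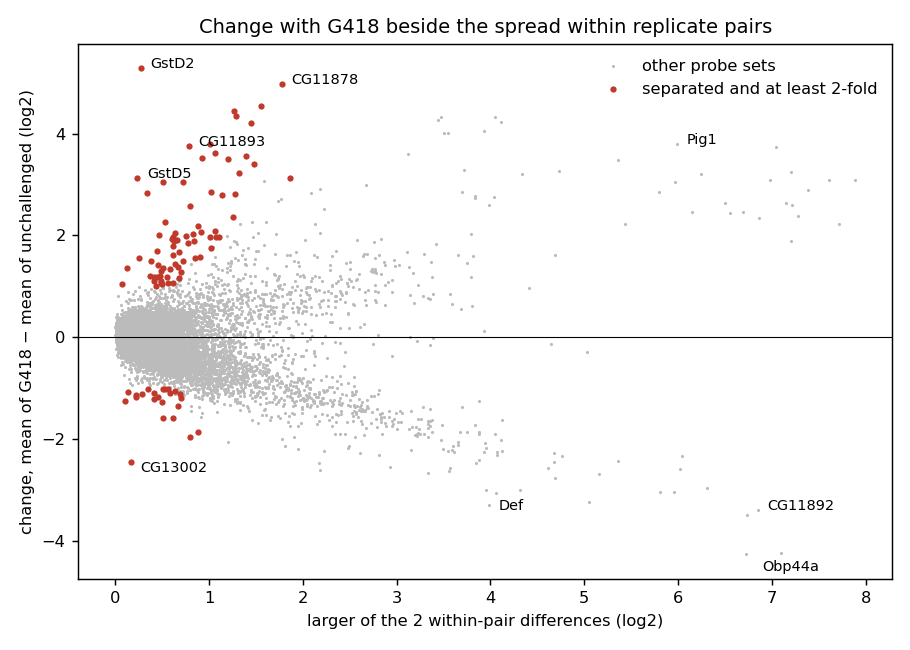
Each point is a probe set. The vertical axis is the log2 change with G418 and the horizontal axis the larger of the within-pair log2 differences; red points were separated and at least 2-fold. GstD2 has a change of 5.28 at a small spread, whereas Obp44a and CG11892 have large negative changes at spreads near 7.

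The gene that stood farthest from its replicate spread was GstD2, a glutathione S-transferase, an enzyme that couples foreign compounds to glutathione. It was at 11.94 and 12.14 on the G418 arrays, against 6.90 and 6.62 on the unchallenged arrays. The groups lay 5.04 apart at their nearest arrays while replicates differed by at most 0.28. The change was 5.28 ± 0.18 (SE, n = 2 arrays each), 38.9-fold, with an adjusted p of 0.0904 in limma. Over the alternatives GstD2's adjusted p in limma ran from 0.0340 to 1.00. It was under 0.05 with an intensity-dependent variance prior (0.0355) and without unchallenged replicate 1 (0.0340).

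GstD5 was at 9.76 and 9.52 on the G418 arrays, against 6.58 and 6.43 on the unchallenged arrays, a change of 3.14 ± 0.16 (SE). GstD4 was at 9.58 and 8.52 with G418 and at 5.74 and 5.12 without it. In both genes the G418 arrays lay well clear of the unchallenged ones. GstD9 was at 11.47 and 10.85 on the G418 arrays, against 9.34 and 9.03 on the unchallenged arrays. In all, 7 of 11 measured GstD genes (63.6%) were separated and at least 2-fold higher, beside 0.551% of all genes, and 10 had non-overlapping arrays with G418 higher, beside 18.3% of all genes. Of the 4 that were not separated, 3 did not overlap but had gaps narrower than their replicate spread. GstD10 was at 8.90 and 8.60 on the G418 arrays, against 8.03 and 7.37 on the unchallenged arrays. GstD11 was at 4.66 and 4.43 with G418 and at 4.40 and 3.98 without it. GstD1 was at 13.13 and 12.99 with G418 and 12.69 and 12.89 without, and GstD3 overlapped, at 9.52 and 9.79 against 9.54 and 9.90. GstD paralogs resemble one another in sequence and sit side by side, so probe sets may share signal among them.

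The other glutathione S-transferases did not show this pattern. Of 23 measured genes of the E, O, S, T and Z classes, 0 were separated and at least 2-fold in either direction. Non-overlapping arrays were found in 6 with G418 higher (26.1%, beside 18.3% of all genes) and in 6 with G418 lower (26.1%, beside 20.1%). Their median change was 0.01, which turned to -0.001 after median centring, against -0.02 over all genes. GstE9 was at 8.75 and 7.89 on the G418 arrays, against 7.58 and 6.20 on the unchallenged arrays, with a gap narrower than its replicate spread.

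Ecdysteroid kinase-like genes made up the largest group of separated genes from any list. Of 46 measured members, 11 were separated and at least 2-fold higher (23.9%, beside 0.551% of all genes). Those separated and lower numbered 0, beside 0.175% of all genes. Non-overlapping arrays were found in 21 with G418 higher (45.7%, beside 18.3% of all genes) and in 3 with G418 lower (6.52%, beside 20.1%). CG11878 was at 10.22 and 8.44 on the G418 arrays, against 4.66 and 4.05 on the unchallenged arrays, 31.6-fold on average. CG16898 was at 9.92 and 8.70 with G418 and at 5.62 and 4.33 without it. CG31104 was at 9.97 and 9.28 on the G418 arrays, against 6.15 and 4.70 on the unchallenged arrays. In each of these 3 genes the groups lay at least 3.08 apart at their nearest arrays.

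CG11893 was at 12.49 and 12.03 on the G418 arrays, against 8.89 and 8.10 on the unchallenged arrays, a change of 3.76 ± 0.34 (SE, n = 2 arrays each; adjusted p = 0.788 in limma). CG31288 was at 10.30 and 9.26 on the G418 arrays, against 6.92 and 5.53 on the unchallenged arrays. The remaining 6 separated members, named after their values were seen, were CG9498, CG32195, CG10562, CG10560, CG31974 and CG13659, with changes from 1.31 to 2.04. For all 11 separated members both G418 arrays were also above both F3 arrays.

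The family did not move as one. Its median change was 0.23, or 0.43 if unchallenged replicate 1 is left out and 0.09 if unchallenged replicate 2 is. Of the 46 members 23 lay within 0.5 of no change. At the bottom stood CG11892, at 3.80 and 4.12 on the G418 arrays, against 10.77 on unchallenged replicate 1 and 3.92 on unchallenged replicate 2. It was thus dim on 3 of the arrays and bright on 1, and was at 4.04 and 10.19 on the F3 arrays with and without past exposure. CG10514, CG9259 and CG10513, named after their values were seen, had the same arrangement. Their levels were 9.76, 8.53 and 7.69 on unchallenged replicate 1, while the remaining arrays of the comparison lay from 3.65 to 4.23. Over all genes, 21 were at least 1 above the median of unchallenged replicate 1 and at or below the array median on the other 3 arrays. For such genes the mean change is a single array's value, and without unchallenged replicate 1 the change of CG11892 was 0.0347.

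**Figure D3:**
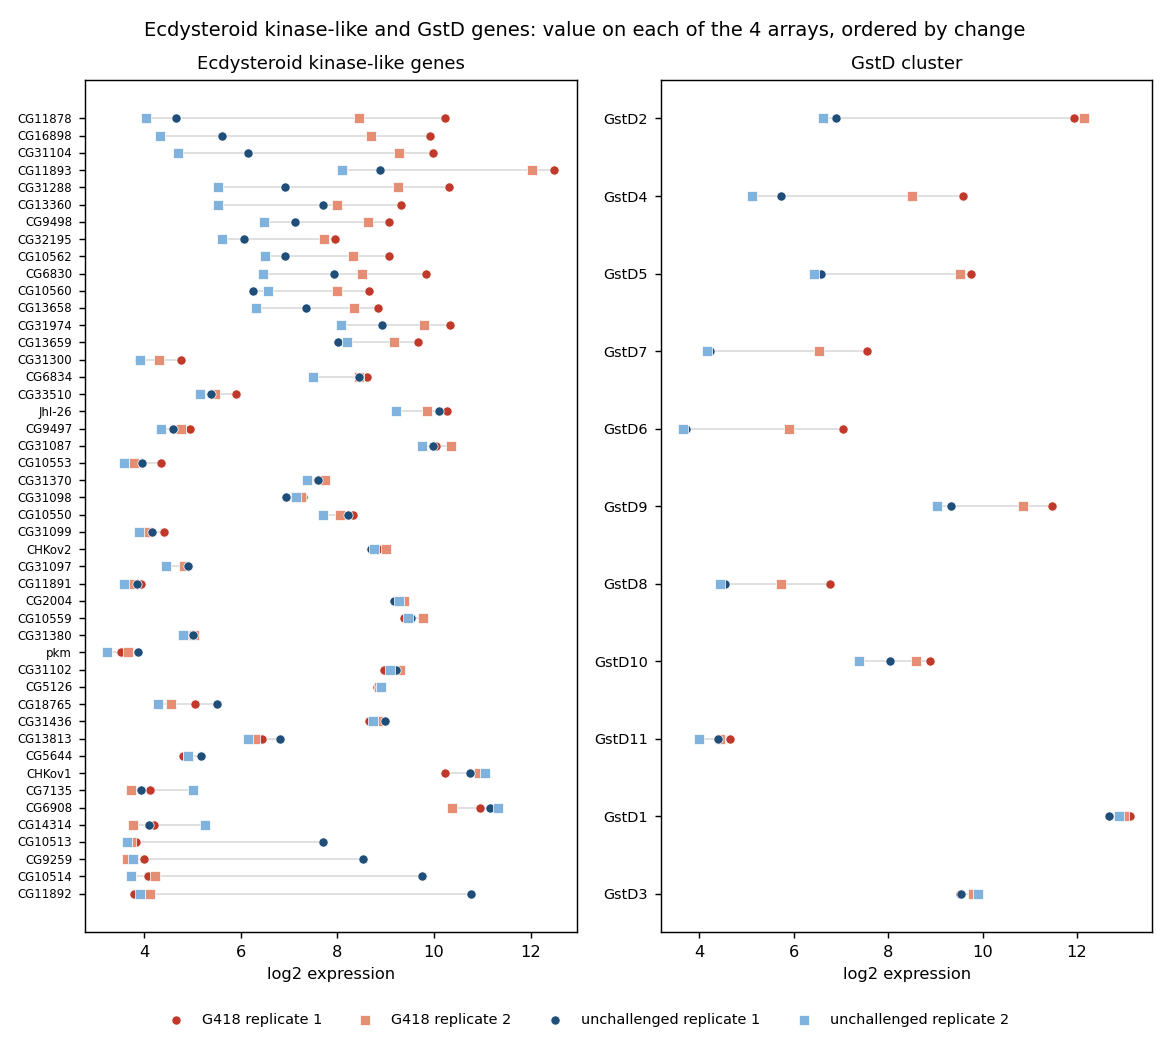
Log2 expression on each array for the 46 measured ecdysteroid kinase-like genes (left) and the 11 GstD genes (right), ordered by change with G418; red and orange mark G418 replicates 1 and 2, dark and light blue unchallenged replicates 1 and 2. GstD2 and CG11878 have wide gaps between the groups, whereas CG11892 is high on unchallenged replicate 1 alone.

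Other steps of foreign compound handling had between 0 and 2 separated genes a list. The separated higher shares were 2.86% of UDP-glycosyltransferases, 2.41% of cytochrome P450s, 12.5% of aldo-keto reductases and 7.14% of ABC transporters, beside 0.551% of all genes. Among UDP-glycosyltransferases, which attach sugars, Ugt37A2 was at 8.26 and 6.40 on the G418 arrays, against 4.44 and 3.97 on the unchallenged arrays, and it was the single separated member of 35. Ugt37A3 was at 10.18 and 9.48 with G418 and at 8.43 and 6.20 without it. Its unchallenged replicates lay further apart than those of Ugt37A2, and its G418 replicates lay closer together. Of the 35 genes, 15 had G418 arrays above both unchallenged arrays (42.9%, beside 18.3% of all genes) and 5 had them below (14.3%, beside 20.1%). The list's median change was 0.19. The median difference was 0.19 and 0.38 for G418 replicate 1 against unchallenged replicates 1 and 2, and 0.01 and 0.29 for G418 replicate 2. For unchallenged replicate 2 against unchallenged replicate 1 it was -0.22.

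Of 83 measured cytochrome P450s, 30 had both G418 arrays above both unchallenged arrays (36.1%, beside 18.3% of all genes). In 1 they were below (1.2%, beside 20.1% of all genes). Of the 83, Cyp4p2 and Cyp6a2 were separated and at least 2-fold. Cyp4p2 was at 6.82 and 6.47 on the G418 arrays, against 5.51 and 4.79 on the unchallenged arrays. Cyp6a23 was at 9.27 and 8.76 on the G418 arrays, against 7.98 and 6.56 on the unchallenged arrays. Cyp9b1 was at 7.64 and 6.82 with G418 and at 6.20 and 4.83 without it. In each of the last 2 genes unchallenged replicate 2 was the lowest array. The P450 median difference was 0.45 and 0.51 against unchallenged replicate 2 and 0.05 and -0.0006 against unchallenged replicate 1, for G418 replicates 1 and 2 in each case. The list's median was 0.47 lower on unchallenged replicate 2 than on replicate 1, and the part of that shift in the result was not tested.

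CG12766, an aldo-keto reductase, was at 7.38 and 7.18 on the G418 arrays, against 5.85 and 5.60 on the unchallenged arrays, and was the 1 separated member of 8 on its list. Mdr50, an ABC transporter of the P-glycoprotein family that pumps drugs out of cells, was at 7.09 and 7.72 with G418 and at 5.78 and 4.95 without it. It was the 1 separated member of 14 measured ABC transporters; Mdr65, its relative, was at 3.81 and 4.16 on the G418 arrays, against 3.76 and 6.33 on the unchallenged arrays, which overlapped. Carboxylesterases and epoxide hydrolases had 0 separated genes of 11 at 2-fold. The oxidant defence list had 0 of 18, with 1 gene non-overlapping and higher (5.56%, beside 18.3% of all genes) and 4 lower (22.2%, beside 20.1%), and its median change was -0.07.

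The detoxification lists account for a minority of the separated genes: 41 of the 66 higher ones were on none of the lists. CG31698 was at 11.53 and 10.33 on the G418 arrays, against 5.62 and 7.17 on the unchallenged arrays, and CG15404 was at 10.74 and 9.49 with G418 and at 5.04 and 6.32 without it. Both are named only by number here, and both were higher on unchallenged replicate 2 than on replicate 1, as only 5 of the 66 were. CG5550 was at 10.43 and 9.43 on the G418 arrays, against 6.54 and 5.74 on the unchallenged arrays. CG15255 was at 8.58 and 7.37 with G418 and at 4.52 and 4.43 without it. CG44014 was at 8.66 and 7.96 on the G418 arrays, against 5.74 and 4.43 on the unchallenged arrays, and its 3 probe sets ranged from 0.41 to 3.22 in change. The replicates of these genes differed by up to 1.55, always less than the gap between groups.

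Another 5 separated genes, which are on none of the lists, were picked after their values were seen and stand for no group. Rdh1, a retinol dehydrogenase by name, was at 11.36 and 11.03 on the G418 arrays, against 8.51 and 8.23 on the unchallenged arrays. Acbp5 and Acbp3 encode acyl-CoA-binding proteins, carriers of activated fatty acids. Acbp5 was at 9.06 and 8.68 with G418 and at 6.69 and 5.42 without it, and Acbp3 was at 7.66 and 6.40 with G418 and at 5.02 and 4.32 without it. Fa2h, a fatty acid 2-hydroxylase by name, was at 7.44 and 6.64 on the G418 arrays, against 4.73 and 4.18 on the unchallenged arrays. AOX1, an aldehyde oxidase, was at 10.22 and 9.99 with G418 and at 8.69 and 7.59 without it. These 5 changes ran from 1.96 for AOX1 to 2.83 for Rdh1 on the log2 scale.

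The chromosome neighbourhood of genes with non-overlapping arrays and at least 2-fold changes was examined, whether or not they were separated. Among 11898 genes placed on a chromosome arm there were 7 runs of 3 or more neighbouring measured genes whose arrays did not overlap and that were at least 2-fold higher, and 0 such runs lower. The longest held GstD4, GstD5, GstD6, GstD7 and GstD8 on 3R. The kinase-like genes CG31104, CG13658 and CG11893 formed another on 3R, with changes from 1.77 to 4.20. On the X, sphe, CG9673 and CG4653, genes of the serine protease family, had changes from 1.70 to 2.26. On 2R, the 5′-nucleotidase genes veil and NT5E-2 stood beside CG43110, and the mucin gene Muc55B stood between CG14495 and CG10911. On 3L the run was CG32053, CG32054 and Srg2, and on 3R the salivary glue genes Sgs5bis and Sgs5 lay beside CG7606. None of the genes in the veil, Srg2 and Sgs5 runs was separated. For Sgs5 the gap between groups was 0.48, beside a difference of 5.36 between the unchallenged replicates. Neighbours in such runs are often related in sequence, so their probe sets are not independent measurements.

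Separated genes that were lower with G418 had smaller changes. CG13002 was at 9.10 and 9.08 on the G418 arrays, against 11.44 and 11.62 on the unchallenged arrays, a change of -2.44 ± 0.14 (SE, n = 2 arrays each; adjusted p = 0.318 in limma). Its replicates differed by no more than 0.17, and the groups lay 2.35 apart. Trissin, a neuropeptide gene, was at 4.33 and 4.87 with G418 and at 6.17 and 6.97 without it. The microtubule-associated protein gene tau was at 5.80 and 6.68 on the G418 arrays, against 7.97 and 8.24 on the unchallenged arrays. lap, which encodes a clathrin adaptor of synaptic vesicle recycling, was at 5.52 and 5.89 with G418 and at 6.71 and 7.39 without it. Nervous tissue markers were high on unchallenged replicate 2: the summed linear level of the 9 measured ones was 205 and 210 on the G418 arrays, against 193 and 1323 on unchallenged replicates 1 and 2. Of them nSyb, para and VGlut lay at or below the array median on every array. The part of nervous tissue in the values of Trissin, tau and lap was not tested.

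The odorant-binding protein gene Obp49a was at 6.62 and 7.13 on the G418 arrays, against 8.31 and 8.60 on the unchallenged arrays. dmGlut, a glutamate transporter gene, was at 7.62 and 8.32 with G418 and at 9.17 and 9.16 without it. slbo, which encodes a C/EBP transcription factor, was at 10.64 and 10.92 on the G418 arrays, against 11.78 and 11.99 on the unchallenged arrays. Act88F, a flight muscle actin gene, was at 4.38 and 4.33 with G418, under the array median, and at 5.64 and 5.42 without it. The other members of the 15 with the largest changes, CG9098, CG9801, CG15822, CG9877, edin, CG13488 and CG4783, had changes between -1.58 and -1.09. Apart from CG13002, limma gave each of these 15 an adjusted p of 0.788.

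**Figure D4:**
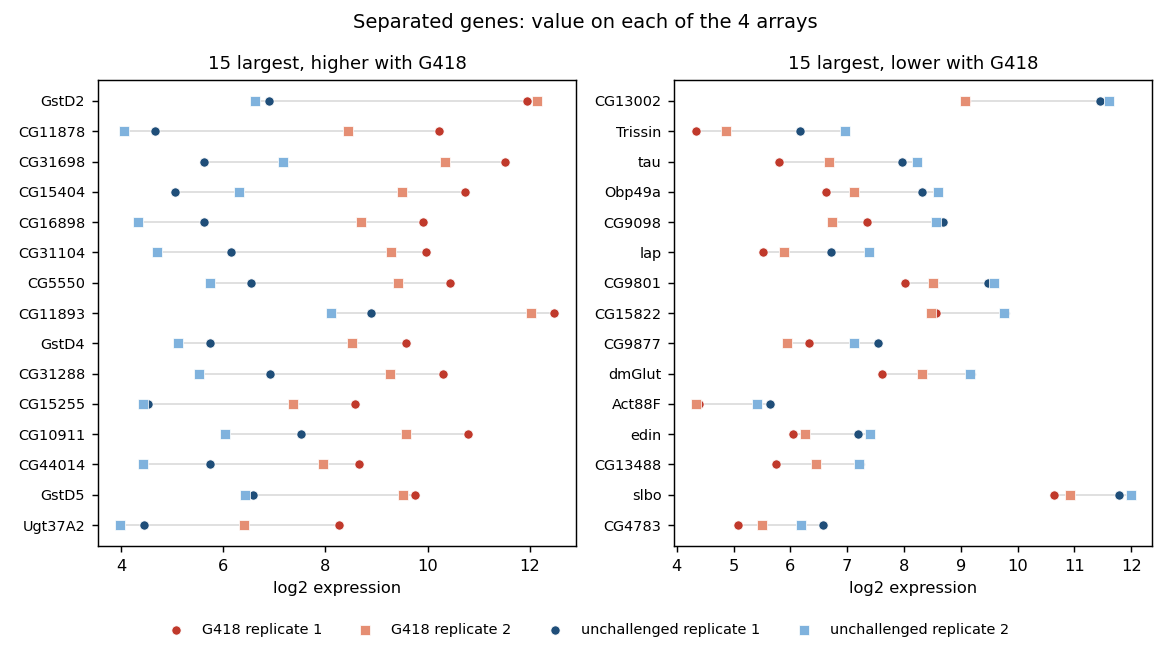
Log2 expression on each array for the 15 separated genes with the largest change in each direction, higher with G418 on the left and lower on the right; red and orange mark G418 replicates 1 and 2, dark and light blue unchallenged replicates 1 and 2. In every gene shown the groups are farther apart than the replicates, and the widest gap is 5.04 on the left and 2.35 on the right.

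The F3 arrays, which the choice of genes did not use, gave further levels from unchallenged larvae, with and without past exposure on F1. The labels give no generation for the other arrays. Of the 66 separated higher genes, 63 (95.5%) had both G418 arrays above both F3 arrays as well. Among the 197 genes that were at least 2-fold higher without being separated, 110 (55.8%) had both G418 arrays above both unchallenged and both F3 arrays. Genes of that set whose groups overlapped could not meet this, so the shares are not like for like. Of all 2191 genes with non-overlapping arrays and G418 higher, 852 (38.9%) met it. Of the 21 separated lower genes, 8 (38.1%) had both G418 arrays below both F3 arrays. Of the 338 that were 2-fold lower without separation, 118 (34.9%) had them below both unchallenged and both F3 arrays. The same held for 1397 (58.0%) of all 2409 genes with non-overlapping arrays and G418 lower, a larger share than among the separated ones. For example, CG9098 was at 7.35 and 6.74 on the G418 arrays and at 5.19 and 5.55 on the F3 arrays with and without past exposure, so both F3 arrays lay lower. Obp49a was at 5.44 and 7.11 on the F3 arrays, neither of them above G418 replicate 2. CG13002 was at 10.97 and 11.82 there, above both of its G418 levels. These shares are a description, since larger changes pass such a criterion more easily.

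Level and array also moved with the direction. In 55 of the 66 separated higher genes G418 replicate 1 was above G418 replicate 2, and in 61 of 66 unchallenged replicate 1 was above unchallenged replicate 2. Among all genes with non-overlapping arrays and G418 higher the numbers were 1535 and 1565 of 2191. Probe sets were also ranked by mean level into 4 bins of near equal size. Of the 73 separated probe sets at least 2-fold higher (0.389% of 18769), 49 lay in the third bin, 22 in the highest, 2 in the second and 0 in the lowest. Over all probe sets the median change was 0.07 and 0.11 in the lowest and second bins and -0.12 and -0.08 in the third and highest.

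The largest changes that were not separated had replicates of at least 1 group 3.44 or more apart. Genes of the salivary glands stood among the highest. Sgs4 was at 13.94 and 12.71 on the G418 arrays, against 7.34 and 10.79 on the unchallenged arrays, and Sgs1 was at 10.76 and 10.36 with G418 and at 4.80 and 8.30 without it. Eig71Ee was at 13.64 and 12.31 on the G418 arrays, against 6.63 and 10.68 on the unchallenged arrays. In each, G418 was the higher group and the unchallenged replicates differed by more than 3. All 9 measured salivary gland markers had a positive change, and their summed linear level was 103400 and 53210 on the G418 arrays, against 2194 and 36080 on the unchallenged arrays; ng4 lay at or below the array median on every array. In a dissected organ more salivary tissue and more RNA per salivary cell cannot be told apart. Sgs5bis, CG9040, CG12715 and CG34279 had changes from 4.02 to 4.32, with replicates up to 3.47 to 4.11 apart. Pig1, a salivary gene at the Sgs4 locus, was at 12.12 and 6.14 on the G418 arrays, against 6.58 and 4.08 on the unchallenged arrays, which overlapped.

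On the lower side, unchallenged replicate 2 was far above the other arrays in 6 of the 8 genes. Obp44a was at 5.55 and 5.62 on the G418 arrays, against 6.28 and 13.37 on the unchallenged arrays. ImpE2 and ImpE1, ecdysone-inducible genes of imaginal discs, were at 5.81 and 4.20 and at 4.11 and 4.61 with G418, against 5.13 and 11.86 and 5.06 and 10.11 on unchallenged replicates 1 and 2. The elongation factor gene eEF1alpha2 was at 6.79 and 7.32 on the G418 arrays, against 8.09 and 12.14 on the unchallenged arrays, and the neuronal RNA-binding protein gene fne was at 3.57 and 3.92 with G418 and at 3.89 and 9.69 without it. The long noncoding RNA gene lncRNA:CR33938 was at 4.52 and 4.86 on the G418 arrays, against 5.59 and 12.32 on the unchallenged arrays. On the F3 arrays these 6 genes lay between 3.72 for fne and 7.67 for eEF1alpha2, far below unchallenged replicate 2. The contribution of other tissue to them was not tested.

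Def differed from these, because a G418 array was the outlying one. Defensin is an antimicrobial peptide against Gram-positive bacteria. Def was at 5.02 and 9.01 on the G418 arrays, against 10.49 and 10.11 on the unchallenged arrays, a change of -3.28 ± 1.39 (SE; adjusted p = 0.788 in limma). Among the 12 measured antimicrobial peptide genes it was the 1 with non-overlapping arrays and G418 lower, 8.33% beside 20.1% of all genes, while 4 were non-overlapping and higher, 33.3% beside 18.3%. Drsl3, of the Drosomycin family, was one of those, at 7.25 and 7.39 on the G418 arrays, against 6.49 and 6.36 on the unchallenged arrays. In the IMD pathway, which senses bacterial peptidoglycan, edin, a gene known to be induced by infection, was at 6.04 and 6.26 with G418 and at 7.19 and 7.39 without it. pirk, a feedback inhibitor of the pathway, was at 8.75 and 8.15 on the G418 arrays, against 9.29 and 9.40 on the unchallenged arrays. PGRP-LF, a receptor that dampens the pathway, was at 8.23 and 8.16 with G418 and at 8.69 and 8.54 without it. Of 13 measured IMD genes these 3 were non-overlapping and lower (23.1%, beside 20.1% of all genes), a share near that of all genes. Those non-overlapping and higher numbered 0, beside 18.3% of all genes.

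Because G418 acts on the ribosome, genes of translation were examined as groups. Of 34 cytosolic ribosomal protein genes read by a probe set of their own, 29 had a negative change, 13 were non-overlapping and lower (38.2%, beside 20.1% of all genes) and 0 non-overlapping and higher (beside 18.3%). Their changes were small, from -0.25 to 0.41, with a median of -0.05 that was -0.0077 without unchallenged replicate 2, and 0 were separated at 2-fold. The 69 genes for mitochondrial ribosomal proteins had a median of -0.09, which turned to 0.05 after a further quantile normalization. tRNA synthetases, which charge tRNAs with amino acids, split evenly, with 15 of 30 positive and 15 negative and a median of -0.01 (0.06 after quantile normalization). Translation initiation and elongation factors had a median of 0.04 over 44 genes, which turned to -0.01 when dim probe sets were left out. Release factors and genes of nonsense-mediated decay, the pathway that removes messages with early stop codons, had a median of -0.11 over 9 genes, and their lowest change was -0.31. Leaving out 1 array also turned medians: without unchallenged replicate 2 that of the mitochondrial ribosomal proteins was 0.03, that of the synthetases 0.03 and that of the release factors 0.0055, without unchallenged replicate 1 that of the translation factors was -0.07, and without G418 replicate 1 that of the synthetases was 0.06. In these 5 groups 0 genes had an unadjusted p under 0.05, beside 4.28% of all genes.

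Lists for stress responses tied to protein synthesis and folding had medians between -0.34 and -0.01. The unfolded protein response list had 4 of 13 genes non-overlapping and higher (30.8%, beside 18.3% of all genes) and 0 lower (beside 20.1%), with changes between -0.22 and 0.38 and a median of -0.01 that turned to 0.10 after quantile normalization. Leaving out any array but G418 replicate 2 turned it too, to between 0.04 and 0.08. In the integrated stress response list, trbl, the tribbles pseudokinase gene, was at 8.08 and 8.07 on the G418 arrays, against 7.67 and 7.45 on the unchallenged arrays. Gcn2, which encodes a kinase that senses uncharged tRNA, was at 6.57 and 6.79 with G418 and at 6.97 and 7.12 without it. The median of the 8 genes was -0.19, which turned to 0.0142 without G418 replicate 1. All 8 measured heat shock and chaperone genes had a negative change, whereas 47.7% of all genes had a positive one. Of the 8, 5 were non-overlapping and lower (62.5%, beside 20.1% of all genes) and 0 higher (beside 18.3%). Their median of -0.34 was -0.25 without unchallenged replicate 2. The median difference was -0.37 and -0.55 for G418 replicate 1 against unchallenged replicates 1 and 2, and -0.09 and -0.43 for G418 replicate 2. It was 0.41 within the G418 pair and 0.335 within the unchallenged pair. Hsp26 was at 9.84 and 10.37 on the G418 arrays, against 10.86 and 12.19 on the unchallenged arrays, and Hsp27 was at 10.94 and 11.49 with G418 and at 11.71 and 13.03 without it. In both, unchallenged replicate 2 was the highest array by more than 1.

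Aminoglycosides collect in lysosomes, so lysosomal and autophagy genes were counted too. Of 31 such genes 2 were non-overlapping and higher (6.45%, beside 18.3% of all genes) and 7 non-overlapping and lower (22.6%, beside 20.1%). The median change was -0.10, which turned to 0.0116 without unchallenged replicate 1. Atg7, an enzyme that activates ubiquitin-like proteins for autophagy, was at 8.63 and 9.18 on the G418 arrays, against 9.79 and 9.71 on the unchallenged arrays. Atg1, the kinase that starts autophagy, was at 9.18 and 9.82 with G418 and at 10.04 and 10.20 without it. Npc2g and Npc2c, sterol-binding proteins of the Niemann-Pick family, had positive changes of 1.37 and 1.32 with overlapping arrays. Among 18 acid hydrolase genes 3 were non-overlapping and higher (16.7%, beside 18.3% of all genes) and 5 lower (27.8%, beside 20.1%). The proteasome list had a median of -0.03 over 40 genes, which turned to 0.06 without unchallenged replicate 2.

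Digestive enzymes varied more between arrays. The maltase gene Mal-A1 was at 11.20 and 10.99 on the G418 arrays, against 9.26 and 7.08 on the unchallenged arrays. Mal-A3 was at 7.61 and 7.02 with G418 and at 5.68 and 5.07 without it, the separated gene of that list. Of 11 maltase and amylase genes 10 had a positive change, beside 47.7% of all genes. The 4 that were non-overlapping and higher made up 36.4%, beside 18.3% of all genes. The list's median was 0.77 lower on unchallenged replicate 2 than on replicate 1, and for G418 replicate 2 against unchallenged replicate 1 it was 0.03. Trypsins had a positive change in 8 of 9, with etaTry at 9.21 and 8.40 on the G418 arrays, against 8.11 and 6.63 on the unchallenged arrays. Their median of 0.23 turned to -0.06 if unchallenged replicate 2 was left out and to -0.01 if G418 replicate 1 was. Jonah proteases, the other large serine protease family of the midgut, had 5 of 13 positive. The 6 measured midgut markers had a median change of 0.01, which was -0.004 after median centring. Their summed linear level was 76150 and 64170 on the G418 arrays, against 79720 and 59410 on the unchallenged arrays.

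Cuticle, mucin and odorant-binding genes contributed few separated genes. Of 105 measured cuticle protein genes 0 were separated at 2-fold. Non-overlapping arrays were found in 24 with G418 higher (22.9%, beside 18.3% of all genes) and in 8 with G418 lower (7.62%, beside 20.1%). In the peritrophic matrix and mucin list, whose products line the gut, Muc68E was the separated gene of 22, at 11.79 and 12.36 on the G418 arrays, against 12.97 and 13.21 on the unchallenged arrays, and it was named after its values were seen. Muc68Ca was at 11.86 and 5.71 with G418 and at 8.10 and 4.56 without it, so its change of 2.45 lay inside the replicate spread. obst-A, a chitin-binding protein gene of the cuticle, was at 6.26 and 8.17 on the G418 arrays, against 8.28 and 10.06 on the unchallenged arrays. The odorant-binding protein list had Obp49a alone separated among 47.

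Growth and patterning lists had negative medians that followed a gradient across the arrays. Cell cycle and DNA replication genes had a negative change in 19 of 19, with 10 non-overlapping and lower (52.6%, beside 20.1% of all genes) and a median of -0.58. The list's median difference was -0.40 for G418 replicate 1 against unchallenged replicate 1, -1.01 against unchallenged replicate 2, and -0.02 and -0.67 for G418 replicate 2 against the same arrays. Polycomb group genes, whose products hold chromatin of developmental genes in a repressed state, had a negative change in 15 of 15. Of them 8 were non-overlapping and lower (53.3%, beside 20.1% of all genes) and 0 higher (beside 18.3%). Their median was -0.44, with pair medians of -0.59, -0.83, -0.09 and -0.38 in the same order. In the cell cycle and Polycomb lists 0 genes had a positive change, beside 47.7% of all genes. The proventriculus regulators had a median of -0.53 and pair medians of -0.77, -0.84, 0.002 and -0.34. In all 3 lists G418 replicate 2 and unchallenged replicate 1 lay within 0.1 of each other. The 2 G418 arrays differed by 0.36, 0.45 and 0.66, and the 2 unchallenged arrays by 0.62, 0.28 and 0.38, replicate 2 above replicate 1 in both groups. The summed linear level of the 7 proventriculus markers followed the same arrays, at 3483 and 5985 with G418 and at 5820 and 6811 without it. Whether tissue makeup plays a part in these shifts was not tested.

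**Figure D5:**
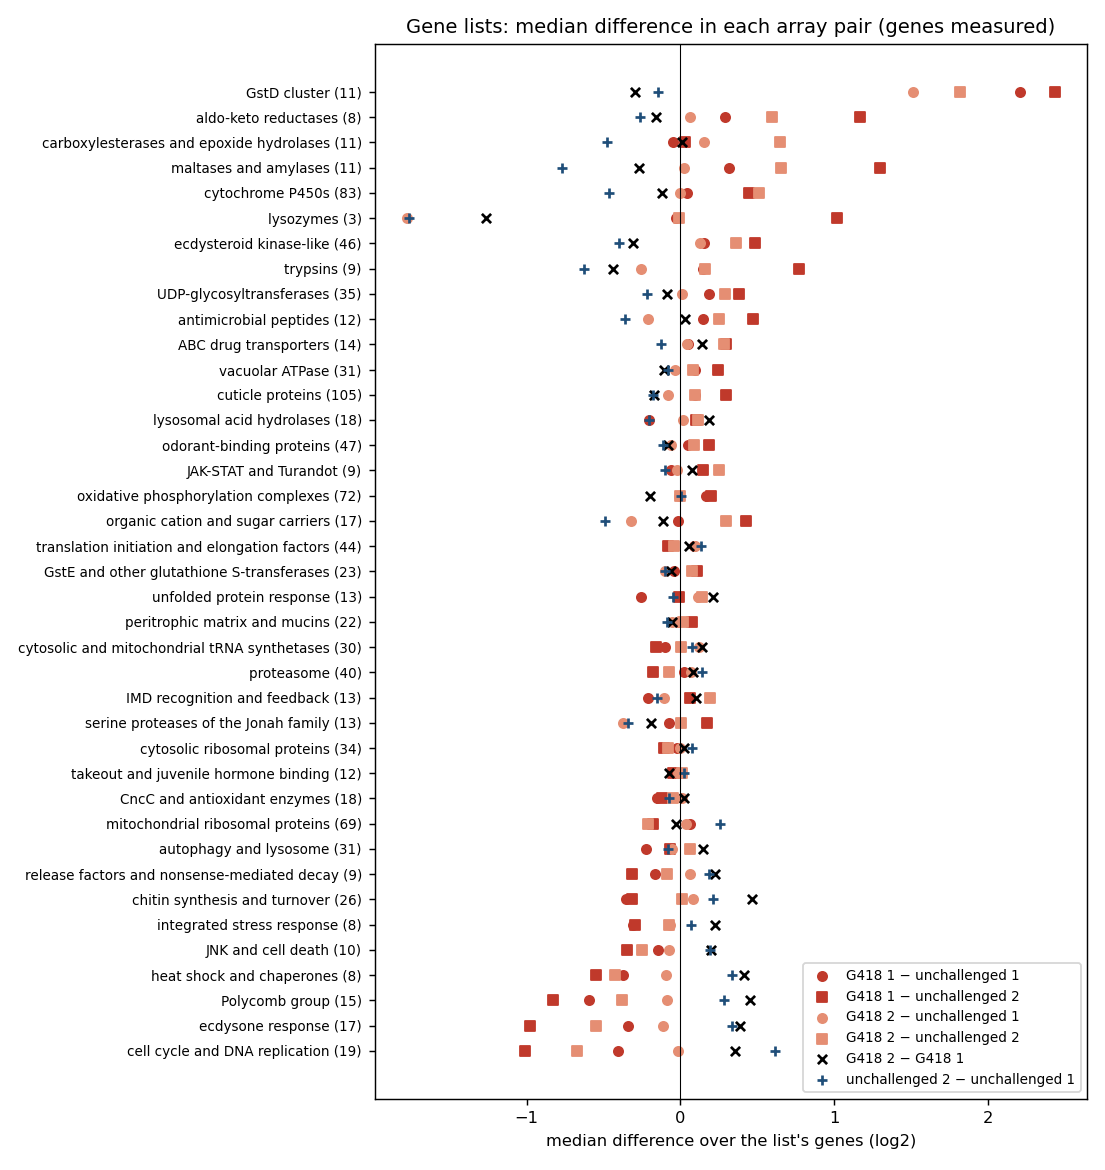
Median log2 difference of each gene list, with the number of genes measured, in each of the 4 G418 against unchallenged array pairs (red and orange) and within the G418 pair (black cross) and the unchallenged pair (blue plus). The GstD cluster lies between 1.51 and 2.44 in all 4 pairs, while cell cycle genes run from -1.01 to -0.02 and their replicate differences are 0.36 and 0.62.

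Ecdysone response genes had 8 of 17 non-overlapping and lower (47.1%, beside 20.1% of all genes) and 2 higher (11.8%, beside 18.3%), but ImpE1, ImpE2 and ImpE3 were high on unchallenged replicate 2. ftz-f1, a nuclear receptor gene of the late ecdysone cascade, was the separated member, at 5.49 and 5.99 on the G418 arrays, against 4.73 and 4.66 on the unchallenged arrays, and at 6.16 and 4.73 on the F3 arrays with and without past exposure. hry, the hairy gene whose driver the strain carries, was at 11.58 and 12.20 with G418 and at 11.78 and 11.77 without it, so the groups overlapped. For other tissues, the summed linear level of the 5 fat body markers was 37380 and 49680 on the G418 arrays, against 60760 and 24180 on the unchallenged arrays, and that of the 7 haemocyte markers 553 and 768 against 1195 and 702. The 6 muscle markers summed to 3457 and 3223 with G418 and to 3860 and 2523 without it, and in the fat body, haemocyte and muscle sums the groups overlapped. The 2 tracheal markers summed to 1080 and 1304 with G418 and to 1520 and 1828 without it, and there the groups did not overlap. The part of any of these tissues in the changes above was not tested.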

How the data were processed

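The deposited values are log2 expression values per probe set. Per the submitters' processing notes, the authors made them by RMA, with the Expression Console software of Affymetrix. Its version, and whether RMA was run on the 6 arrays jointly, is not given in the sources used here. No array image was used, and the number of arrays limits the precision. Of 18952 probe sets, 183 controls were left out. The platform annotation, updated through RefSeq, gave 13647 of the rest 1 gene symbol, 402 several and 4720 none. A gene stands for its probe set with 1 symbol and the highest mean over the 4 arrays.

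Limma 3.58.1 in R 4.3.3 was fitted to the 2 G418 and 2 unchallenged arrays, with Benjamini-Hochberg adjustment, and was tested on simulated data. Genes are named by rule: up to 15 separated genes with the largest change in each direction, up to 8 that were not separated, up to 4 per list, the runs of neighbours, and hry. Further genes were named after their values were seen: those so marked, the remaining GstD genes, Cyp6a2, Atg1 and the dim markers. The gene lists and members were chosen with earlier results of these data known. Linear marker levels are sums of 2 to the power of the log2 value. The alternatives were a replicate block, another variance prior, a filter on dim probe sets, further normalizations, other thresholds, another choice of probe set and leaving out each array.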

Additional observations from a re-analysis of the deposited data

How the results depend on the processing

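Limma called 0 probe sets at an adjusted p under 0.05 in the fit as reported, and 0 after further quantile normalization, median centring or the filter on dim probe sets. It called 1, GstD2, higher with G418, with an intensity-dependent variance prior, and 1 at an adjusted p under 0.1. With 1 array left out the calls ran from 0 to 251, those higher from 0 to 59 and those lower from 0 to 192. The 664 probe sets at an unadjusted p under 0.05 became 379 when the dimmer ones were left out, and ran from 241 to 2320 with 1 array left out; the cause was not tested. A gap over 2 times the replicate spread left 33 of the 73 separated higher probe sets and 8 of the 23 lower ones, and a threshold of 1.5-fold gave 123 and 79. The filter on dim probe sets tests fewer of them and left 1329 of 3994 non-overlapping higher probe sets. The 7 runs of neighbours became 13 at 1.5-fold.

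With the replicate number as a block, limma called 0 probe sets, the lowest adjusted p was 0.177, and 2187 had an unadjusted p under 0.05. Arrays of the same number deviated together with r = 0.315, but with only 2 pairs the numbers are not taken to pair the arrays.

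Of the 111 genes whose change was followed, 9 turned sign when 1 array was left out. The log2 change ran from -6.82 to 0.0347 for CG11892, from -5.60 to 0.42 for CG10514, from -4.70 to 0.0602 for CG9259 and from -3.91 to 0.13 for CG10513. It ran from -2.34 to 0.22 for Mdr65, from -0.62 to 5.53 for Muc68Ca, from -0.19 to 2.94 for Npc2g, from -0.25 to 0.12 for GstD3 and from -0.19 to 0.43 for hry. With 2 arrays a group, a change near the replicate spread could not be told from it.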
